A study of Mus musculus with 6 samples.

Results

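Genes of the phosphoinositide 3-kinase (PI3K) and AKT pathway were followed in a mouse model of Philadelphia chromosome-positive acute lymphoblastic leukaemia, pre-B cells driven by the fusion kinase BCR-ABL1. The 10 genes were listed by name: the catalytic subunit genes Pik3ca, Pik3cb, Pik3cd and Pik3cg, the regulatory subunit genes Pik3r1 and Pik3r5, the inhibitor gene Pik3ip1, the kinase genes Akt1 and Akt2, and the lipid phosphatase gene Inpp4b. All 10 were among the 19938 genes measured, 9 by 1 probe set and Akt2 by more than 1, where the probe set with the highest mean log2 value was read. The cells were of strain 129P2/OlaHsd with the genotype Ptpn6 +/fl, so that 1 allele of Ptpn6, the gene of the tyrosine phosphatase SHP-1, was floxed and the other, which Cre cannot delete, was not. For 3 arrays the cells had been transduced with PMIP-ERT2, a vector that carries the hormone-binding domain alone (ERT2), and for the other 3 with PMIP-CRE-ERT2, which adds a Cre recombinase that tamoxifen activates (CRE-ERT2). Both groups were puromycin-resistant and had received 0.5 micromolar 4OH-Tamoxifen for 2 days, and the labels give no difference between them other than the vector. The labels do not say whether the 3 samples of a group were separate cultures or clones.

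PI3K phosphorylates a membrane lipid to PIP3, a docking site for proteins such as AKT and the kinase BTK. Class IA enzymes pair a catalytic subunit of the p110 alpha, beta or delta kind with a regulatory subunit of the p85 kind, and act downstream of tyrosine kinases. The class IB enzyme pairs p110 gamma with p101 or p84 and answers to G-protein coupled receptors. In B cells p110 delta is the catalytic subunit best known for signalling from the antigen receptor. BCR-ABL1 itself uses PI3K and AKT signalling, and active AKT keeps FOXO transcription factors out of the nucleus. An array reads transcript levels and none of these lipid or protein activities.

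Ptpn6 itself had a log2 expression of 11.34 ± 0.08 (SD, n = 3) in ERT2 and 11.27 ± 0.08 (SD, n = 3) in CRE-ERT2, with limma adjusted p = 0.759. Whether its probe set lies in the floxed part is not known here, so this level does not check the labels. Of 12 pre-B cell markers 11 were measured, none of them among the dimmest genes (the lowest share of 0.333 by mean level), and their mean log2 level was 12.18 to 12.26 on the ERT2 arrays and 12.20 to 12.27 on the CRE-ERT2 arrays. With limma 3 of the 11 passed, Dntt higher and Rag2 and Il7r lower in CRE-ERT2, against 4.58% of all 19938 genes. Since all genes include the dimmest and these markers do not, the shares do not test an excess. The mean log2 level of the 8 T cell markers was 7.26 to 7.38 in ERT2 and 7.26 to 7.28 in CRE-ERT2, and that of the 8 myeloid markers 7.12 to 7.21 and 7.09 to 7.21. For the 4 erythroid markers measured it was 7.50 to 7.62 and 7.49 to 7.72, and for the 8 stromal markers 7.53 to 7.71 and 7.55 to 7.75. With limma 0 of these 28 passed, and 1, Lyz2, had an unadjusted p under 0.05, as did 3260 of all 19938 genes. The array values have no true 0, so the absence of a transcript cannot be read from them.

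Among the 10 genes, the class IB catalytic subunit gene Pik3cg fell and the gene of its regulatory partner, Pik3r5, rose in the arrays labelled CRE-ERT2. The other 8 did not pass the test, although Pik3cd and Pik3ip1 had values in CRE-ERT2 wholly above those in ERT2. Thus 2 of 10 genes passed at a limma adjusted p under 0.05, against 4.58% of all 19938 genes tested. The 10 were chosen with earlier results of these data known, so the 2 shares do not test an excess. With the dimmest genes left out (a share of 0.333), 3 of the 9 genes that remained passed, Pik3cb being left out. Of all the genes kept 1260 passed, more than the 914 of the full set, so the share passing was higher than 4.58%. In the single directions, over all 19938 genes, 2.30% were higher and 2.28% were lower. ERT2 and CRE-ERT2 values were fully separated for 6 of the 10 genes, against 22.5% of all genes. Of these 6, Pik3ca and Pik3cb were separated by gaps of only 0.01 and 0.02. The median log2 change of the 10 was 0.00, beside -0.03 for all genes, and 5 of the 10 changes were above 0. The count of 2 fell to 1 when replicate 2 or replicate 3 of CRE-ERT2 was left out, where Pik3r5 no longer passed, and to 0 when all probe sets were tested, and rose to 4 after a further quantile normalization of the arrays. RNA came from bulk cells, so a lower share of cells with a transcript and less of it per cell cannot be told apart.

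**Figure D1:**
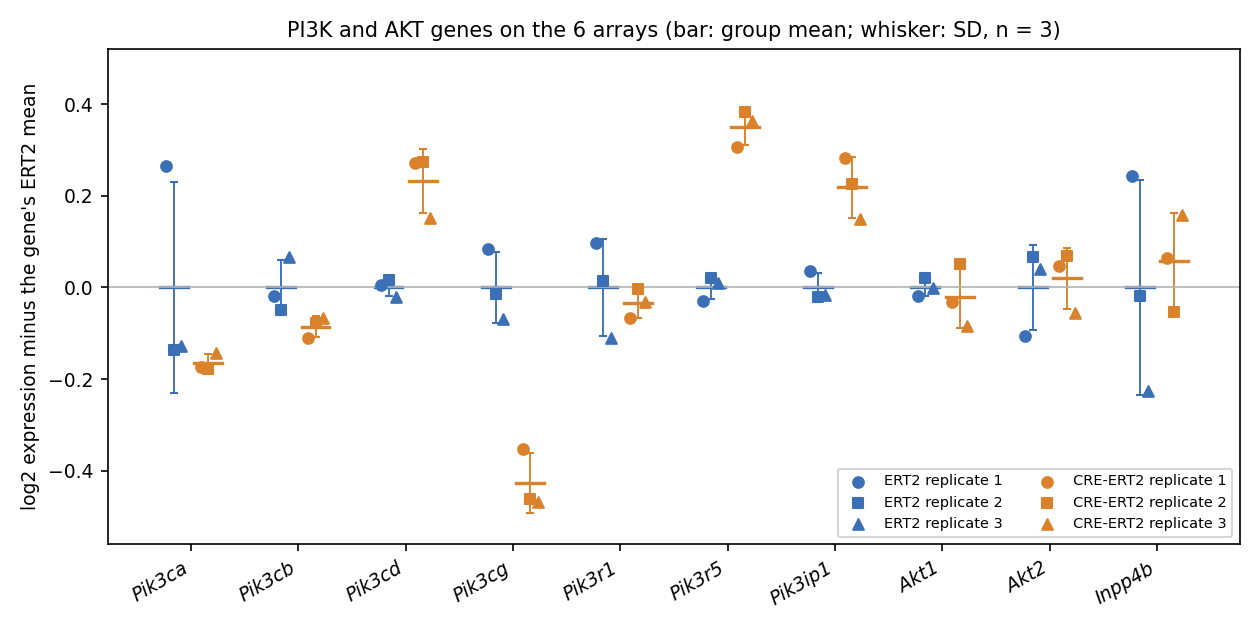
Log2 expression of each gene on every array, minus the mean of that gene in the ERT2 group; marker shape gives the replicate number, horizontal bars are group means and whiskers are SD (n = 3). Pik3cg lies lower and Pik3r5, Pik3cd and Pik3ip1 lie higher on all 3 CRE-ERT2 arrays, while ERT2 replicate 1 stands alone for Pik3ca.

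Pik3cg encodes p110 gamma, the class IB catalytic subunit. Its log2 expression was 12.58, 12.48 and 12.43 on ERT2 replicates 1, 2 and 3 and 12.15, 12.04 and 12.03 on CRE-ERT2 replicates 1, 2 and 3. All CRE-ERT2 arrays were below all ERT2 arrays, with a gap of 0.28 between the nearest of them, wider than the range within either group (0.15 and 0.12). The log2 change was -0.43 (SE 0.08, 95% interval -0.59 to -0.26), a ratio of 0.744 (0.664 to 0.833), with limma adjusted p = 0.00499. By p-value it ranked 346 of 19938 genes. Pik3cg passed under 13 of 14 alternative settings, with adjusted p from 6.83e-05 to 0.0625, and missed the threshold when all 35556 probe sets were tested.

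Pik3r5 encodes p101, a regulatory subunit that binds p110 gamma and couples it to G-protein beta-gamma subunits. It read 10.08, 10.13 and 10.12 on ERT2 replicates 1 to 3 and 10.41, 10.49 and 10.47 on CRE-ERT2 replicates 1 to 3. Here all CRE-ERT2 arrays were above all ERT2 arrays, by at least 0.29, and the ranges within the groups were 0.05 and 0.08. The log2 change was 0.35 (SE 0.07, 95% interval 0.20 to 0.50), a ratio of 1.28 (1.15 to 1.42), with limma adjusted p = 0.0104. Arrays of a group agreed closely for this gene: only 2.85% of genes had a smaller within-group SD than its 0.03. Pik3r5 passed under 11 of 14 alternatives. The adjusted p was 0.0558 with CRE-ERT2 replicate 2 left out, 0.0631 with CRE-ERT2 replicate 3 left out and 0.0641 when all probe sets were tested, and the change stayed between 0.33 and 0.39 under the 14.

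The sequences upstream of these genes are shown because the partners of the class IB enzyme passed in opposite directions. RefSeq promoter windows (build GRCm38.p6) matched all 10 genes by symbol, with 18 windows in all, and the 250 bases before each annotated start were searched on both strands. Pik3cg has 2 annotated starts and Pik3r5 has 1. Capitals mark a match to any searched motif, and neither of these printed windows holds one. They are given 5′ to 3′ along the gene's strand, for Pik3cg at chr12:32208660-32208909 on the minus strand (its more upstream start) and for Pik3r5 at chr11:68431875-68432124 on the plus strand.
Pik3cg: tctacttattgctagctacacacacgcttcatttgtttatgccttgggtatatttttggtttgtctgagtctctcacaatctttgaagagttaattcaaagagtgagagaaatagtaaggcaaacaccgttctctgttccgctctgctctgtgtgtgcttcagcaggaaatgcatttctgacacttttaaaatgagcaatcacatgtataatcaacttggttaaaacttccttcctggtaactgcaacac
Pik3r5: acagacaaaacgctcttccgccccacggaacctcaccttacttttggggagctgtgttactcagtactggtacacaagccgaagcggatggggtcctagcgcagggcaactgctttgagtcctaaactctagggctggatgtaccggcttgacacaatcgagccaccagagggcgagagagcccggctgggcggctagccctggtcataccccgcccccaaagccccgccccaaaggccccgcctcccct

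These windows differ in base composition. That of Pik3cg has 38.8% G or C and 3 CpG dinucleotides, and 9.7% of all 32851 windows have less G and C. The window before the second start of Pik3cg, not printed in full, has 44.0% G or C and 5 CpG. The window of Pik3r5 has 61.6% G or C and 14 CpG dinucleotides, and 75.7% of windows have less. The median over all windows is 52.4%, with 6 CpG. The motifs searched were the FOXO element GTAAACA (in 3.17% of all windows), the PU.1 element GAGGAAG (10.6%), the STAT element TTCNNNGAA (7.02%), the E-box CACGTG (6.02%) and the ETS element CCGGAAG (6.91%). The PU.1 and ETS elements share the letters GGAAG. Matches to a FOXO element were found for 2 of the 10 genes, Akt1 and Pik3cg, and to a PU.1 element for 2, Pik3cg and Inpp4b. These counts are of genes, which have 18 windows in all, whereas the shares above are of single windows. The STAT element matched in a window of Akt2, the ETS element in that of Pik3ca, and the E-box in none of the 18. Windows of the other 5 genes, Pik3r5 among them, hold none of these letters. The matches of Pik3cg lie before its second annotated start, at 190 and 152 bases for the PU.1 element and 92 bases for the FOXO element. The windows of Pik3cg overlap, and the far PU.1 match begins on the last base of the printed window. It thus runs across the more upstream start. That of Akt1 for the FOXO element lies 161 bases before its more upstream start. These matches are shown in capitals, with 10 bases on either side.
Pik3cg PU.1 far: aactgcaacaCTTCCTCtgcatctgga
Pik3cg PU.1 near: ccccagaaaaGAGGAAGagacgaggtg
Pik3cg FOXO: ttttcctaaaGTAAACAaatgatcctc
Akt1 FOXO: tctaccctctTGTTTACactcctggtg

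Of the class IA catalytic subunits, none passed. Pik3cd encodes p110 delta, the form that is most restricted to white blood cells. Its log2 expression was 12.51, 12.52 and 12.49 on the ERT2 arrays and 12.78, 12.78 and 12.66 on the CRE-ERT2 arrays. The groups did not overlap, the nearest arrays lying 0.14 apart. The log2 change was 0.23 (SE 0.07, 95% interval 0.08 to 0.39), a ratio of 1.17 (1.06 to 1.31), with limma adjusted p = 0.0966. This gene passed after a further quantile normalization (0.0407), with the dimmest genes left out (0.0494) and with a trended, robust variance (0.00877), and in none of the other 11 alternatives.

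Pik3ca encodes p110 alpha, a catalytic subunit found in most tissues. It read 12.33, 11.92 and 11.93 on ERT2 replicates 1, 2 and 3, against 11.89, 11.88 and 11.92 on the CRE-ERT2 arrays. ERT2 replicate 1 was 0.40 above the lowest array of its group, while the other 5 arrays lay close together. The groups did not overlap, but by only 0.01. Its log2 change of -0.16 (95% interval -0.38 to 0.05, adjusted p = 0.480) became -0.03 without ERT2 replicate 1. Pik3cb, the gene of the likewise widespread p110 beta, read 6.89, 6.86 and 6.97 in ERT2 and 6.80, 6.83 and 6.84 in CRE-ERT2. It was the only one of the 10 among the dimmest genes, where changes can be compressed, and the array values do not say whether it was above background. Its log2 change was -0.09 (95% interval -0.24 to 0.07, adjusted p = 0.648), and the groups were separated by only 0.02.

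The main class IA regulatory subunit gene, Pik3r1, which encodes p85 alpha and its shorter forms, showed no change beyond the spread. Its values were 12.35, 12.27 and 12.15 in ERT2 and 12.19, 12.25 and 12.22 in CRE-ERT2, so the CRE-ERT2 arrays lay inside the ERT2 range. The log2 change was -0.03 (95% interval -0.20 to 0.13, adjusted p = 0.917), and its sign turned after a further quantile normalization (0.00) and without ERT2 replicate 1 (0.01).

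Pik3ip1 encodes a transmembrane protein that binds the catalytic subunit of PI3K and lowers its activity. It read 10.24, 10.18 and 10.18 in ERT2 and 10.48, 10.42 and 10.35 in CRE-ERT2. The groups were 0.11 apart at their nearest arrays. The log2 change was 0.22 (SE 0.07, 95% interval 0.06 to 0.37), a ratio of 1.16 (1.04 to 1.30), with limma adjusted p = 0.118. Of the 14 alternatives only the further quantile normalization took it past the threshold (0.0488).

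The AKT kinases, which carry the PIP3 signal to growth and survival proteins, lay almost level between the groups. Akt1 read 12.85, 12.89 and 12.87 in ERT2 and 12.84, 12.92 and 12.78 in CRE-ERT2, a log2 change of -0.02 (95% interval -0.18 to 0.13, adjusted p = 0.946). For Akt2 the values were 11.98, 12.16 and 12.13 in ERT2 and 12.14, 12.16 and 12.03 in CRE-ERT2, a log2 change of 0.02 (95% interval -0.15 to 0.19, adjusted p = 0.957). These intervals leave room for a ratio from 0.885 to 1.10 for Akt1 and from 0.903 to 1.14 for Akt2. ERT2 replicate 1 was the lowest ERT2 array for both kinases. A second probe set of Akt2 read 11.70, 12.00 and 11.94 in ERT2 and 11.98, 11.97 and 11.86 in CRE-ERT2, with a log2 change of 0.05 and an adjusted p of 0.919 in the limma fit over all probe sets. The 2 probe sets of Akt2 followed each other over the 6 arrays (Pearson r = 0.967), both with their lowest value on ERT2 replicate 1. Signs turned for Akt1 after a further quantile normalization and when CRE-ERT2 replicate 3 was left out, and for Akt2 with array weights and when ERT2 replicate 1 or CRE-ERT2 replicate 2 was.

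Inpp4b encodes a phosphatase that removes a phosphate from a breakdown product of PIP3 to which AKT also binds. It read 9.08, 8.82 and 8.61 in ERT2 and 8.90, 8.79 and 8.997 in CRE-ERT2, and all CRE-ERT2 arrays fell within the ERT2 range. The log2 change was 0.06 (SE 0.11, 95% interval -0.18 to 0.29, adjusted p = 0.893), and it turned to -0.06 when ERT2 replicate 3 was left out. Its within-group SD of 0.18 was above that of 94.5% of genes, the widest of the 10, followed by Pik3ca with 0.16 (90.0%). The median within-group SD over all genes was 0.10. Within ERT2, replicate 1 lay farthest from the group mean for 6 of the 10 genes (Pik3ca, Pik3cg, Pik3r5, Pik3ip1, Akt2 and Inpp4b), replicate 3 for 3 and replicate 2 for 1. ERT2 replicate 1 was the highest array of its group for 5 genes and the lowest for 3. Over all genes this array was highest or lowest for 67.2%, beside 66.0% for ERT2 replicate 2 and 66.7% for ERT2 replicate 3. Within CRE-ERT2, replicates 1 and 3 lay farthest for 4 genes each and replicate 2 for 2.

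**Figure D2:**
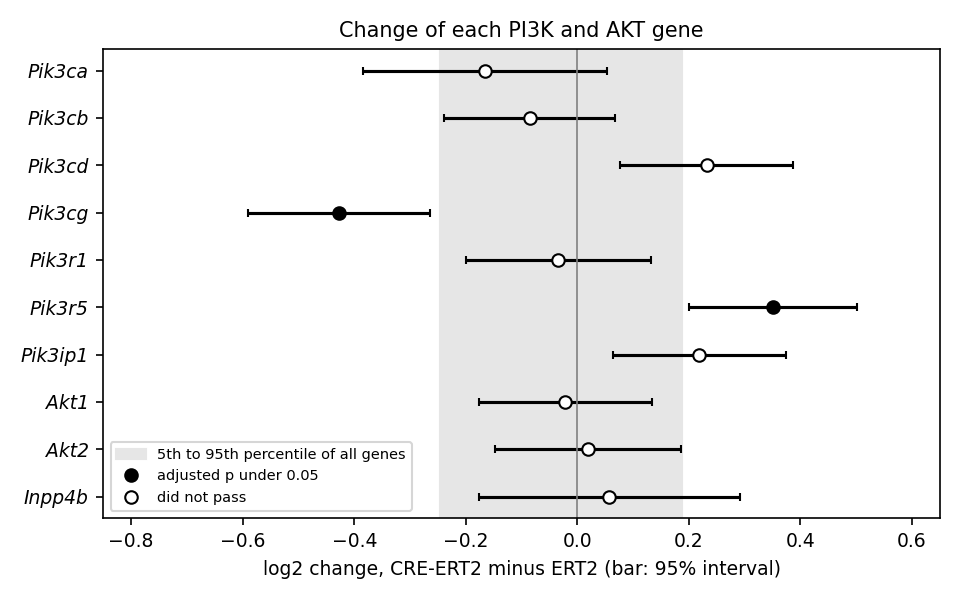
Log2 change of each gene (CRE-ERT2 minus ERT2, x axis) with its 95% interval from limma; filled points passed at an adjusted p under 0.05, and the grey band spans the 5th to the 95th percentile of the change over all genes, from -0.25 to 0.19. Pik3cg, Pik3r5, Pik3cd and Pik3ip1 lie outside the band with intervals that do not cross 0, and of these Pik3cd and Pik3ip1 did not pass the adjusted test.

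The change of Pik3cg was larger in size than that of 97.7% of genes and that of Pik3r5 larger than that of 96.4%. Those of Pik3cd and Pik3ip1 exceeded 90.4% and 89.0%. At the other end, the changes of Akt1 and Akt2 were larger than those of only 15.98% and 14.8% of genes. Even so the change of Pik3r5 was below the median size of 0.42 among the 914 genes that passed, and that of Pik3cg was close to it.

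The genes whose values followed Pik3cg most closely over the 6 arrays were Ifrd1 (Pearson r = 0.999), Pole2 (0.999), Exo1 (0.997), Knop1 (0.997) and Rrp1b (0.996). These correlations span both groups, so a shared difference between the groups alone makes them high. Ifrd1, which encodes a transcriptional co-regulator, changed by -0.68 and passed (limma adjusted p = 0.000265), as did Knop1 (-0.30, 0.0321) and Rrp1b (-0.33, 0.0226). Pole2, a subunit of the replicative DNA polymerase epsilon (-0.14, 0.335), and Exo1, a DNA repair exonuclease (-0.27, 0.0575), did not pass.

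Outside the 10 genes, 81 of 86 further pathway genes, arranged by role in 7 lists, were measured. Of these 6 rose, 4 fell and 71 did not pass, so 12.3% passed, against 4.58% of all genes. Their median log2 change was -0.02, beside -0.03 for all genes. These lists too were chosen with earlier results of these data known and hold few of the dimmest genes. The shares therefore do not test an excess, and the counts of each list below, beside the same 4.58%, do not either. The count of 10 became 6 without ERT2 replicate 1, also 6 without CRE-ERT2 replicate 2, 5 when CRE-ERT2 replicate 1 was left out, 3 when CRE-ERT2 replicate 3 was, and 1, Pik3r3, when all probe sets were tested. Blocking on the replicate number left 5. With the dimmest genes left out 13 passed, and 1260 of all the genes kept, rather than 914 of all 19938. Of the 10 calls, Pik3r3 passed under each of the 14 alternatives, and Irs2 and Inpp5a under 13, all but the test of all probe sets.

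Of 8 other PI3K subunit genes 1 rose, 0 fell and 7 did not pass. Pik3r3, which encodes p55 gamma, a further class IA regulatory subunit, read 7.58, 7.47 and 7.43 in ERT2 and 8.45, 8.14 and 8.15 in CRE-ERT2. All CRE-ERT2 arrays were well above the ERT2 arrays, and the log2 change of 0.75 (SE 0.09) was a ratio of 1.69, with limma adjusted p = 0.000297. Pik3r6 encodes p84, the alternative regulatory partner of p110 gamma. It read 10.86, 10.98 and 10.76 in ERT2 and 11.23, 11.17 and 11.07 in CRE-ERT2, a log2 change of 0.29 (SE 0.08) that did not pass (adjusted p = 0.0652). Both class IB regulatory genes, Pik3r5, which passed, and Pik3r6, which did not, read higher on every CRE-ERT2 array than on any ERT2 array. The groups were likewise fully separated, in either direction, for 22.5% of all genes. The remaining subunit genes, for class II and class III enzymes and for p85 beta, had changes between -0.12 and -0.02.

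Among 8 receptor and adaptor genes that bring PI3K to the membrane 1 rose and 1 fell, both of them insulin receptor substrates. Irs2 rose by 0.42 (SE 0.08, limma adjusted p = 0.00815) and Irs1 fell by 0.36 (SE 0.08, adjusted p = 0.0186). The groups did not overlap for either gene. A second, dimmer probe set of Irs1 (mean 6.11 against 8.48) changed by -0.01, and Irs1 missed the threshold under 6 of 14 alternatives, among them the mean of its probe sets (0.191) and the fits without replicate 1 or 2 of ERT2 or without replicate 2 or 3 of CRE-ERT2.

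Of 11 other phosphoinositide phosphatase genes 1 rose, 1 fell and 9 did not pass. Inpp5a, which acts mainly on soluble inositol phosphates, fell by 0.45 (SE 0.08, limma adjusted p = 0.00723). Inpp5k, also called SKIP, rose by 0.34 (SE 0.07, adjusted p = 0.0223) and lost its call under 6 of 14 alternatives (up to 0.121), including the replicate block and the fits without ERT2 replicate 1 or any CRE-ERT2 array. Inpp5d, the gene of SHIP, the PIP3 phosphatase of blood cells, had a log2 change of -0.02 (adjusted p = 0.938) and is named outside the naming rule.

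Of 10 AKT-related kinase and regulator genes 1 rose, 1 fell and 8 did not pass. Sgk3, an AKT-like kinase that binds a PI3K lipid on endosomes, rose by 0.36 (SE 0.07, limma adjusted p = 0.00855) and missed the threshold without CRE-ERT2 replicate 3 (0.0634) and when all probe sets were tested (0.0592). Trib3, a pseudokinase that can bind AKT, fell by 0.31 (SE 0.08, adjusted p = 0.0339). Its call was lost under 8 of 14 alternatives (up to 0.153), including the further quantile normalization and the fits that left out any array other than ERT2 replicate 1.

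Of 18 mTOR complex and TSC genes 0 passed with limma and 5 had an unadjusted p under 0.05, as did 3260 of all 19938 genes. The median log2 change of the 18 was -0.01. The smallest p belonged to Deptor, an inhibitor of mTOR (-0.27, adjusted p = 0.0874), and Prr5, a subunit of the second mTOR complex (0.38, 0.0924). ERT2 replicate 1 was low for Prr5, at 11.58 against 12.05 and 12.06 on the other ERT2 arrays. Among 10 genes of AKT substrates 0 passed with limma, 2 had an unadjusted p under 0.05, and the median was 0.02. They were Mdm2 (0.22, adjusted p = 0.169) and Foxo3 (0.18, adjusted p = 0.289).

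Of 16 genes of PIP3-binding effectors 2 rose, 1 fell and 13 did not pass. The adaptor gene Dapp1 rose by 0.34 (SE 0.08, limma adjusted p = 0.0279) and Prex1, which activates the GTPase RAC when bound by PIP3, by 0.31 (SE 0.08, 0.0377). Cyth3, an exchange factor for ARF GTPases, fell by 0.32 (SE 0.08, 0.0332). These calls depended on the setting: Dapp1 passed under 8, Cyth3 under 7 and Prex1 under 6 of 14 alternatives. Leaving out any single array ended the call of Prex1 (adjusted p from 0.0517 to 0.145), and any but ERT2 replicate 3 that of Cyth3 (up to 0.174). Dapp1 lost its call without replicate 1 or replicate 3 of either group (up to 0.160).

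**Figure D3:**
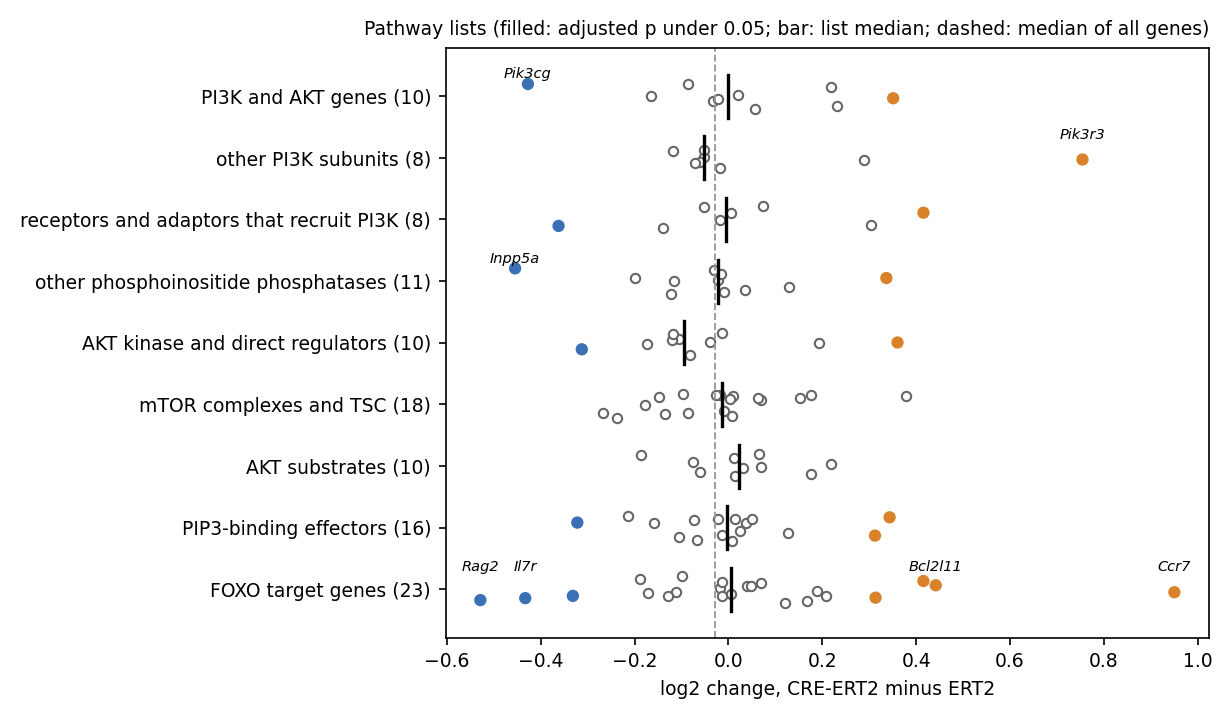
Log2 change (CRE-ERT2 minus ERT2, x axis) of every measured gene of the 10 PI3K and AKT genes, the 7 other pathway lists and the FOXO targets, with the number of genes in brackets; filled points passed at an adjusted p under 0.05, black bars are list medians and the dashed line is the median of all genes. Genes that passed lie on both sides of 0 in most lists, Pik3r3 and Ccr7 lie farthest to the right, and the mTOR and AKT substrate lists have none.

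FOXO factors are switched off by AKT, and genes known as their targets were listed to set beside the kinases. Of 23 measured 4 rose, 3 fell and 16 did not pass, so 30.4% passed, against 4.58% of all genes. The median log2 change was 0.01, beside -0.03 for all genes. This list too was chosen with earlier results of these data known and holds few of the dimmest genes, so the shares do not test an excess. With the dimmest genes (a share of 0.333) left out 7 targets passed. Of the fewer genes kept 1260 passed, more than the 914 of all 19938, so the share passing was higher than 4.58%. Ccr7, a chemokine receptor that guides lymphocytes to lymph nodes, rose by 0.95 (SE 0.07, limma adjusted p = 6.37e-06), from 9.08 ± 0.06 to 10.03 ± 0.04 (SD, n = 3 each). Bcl2l11, the gene of the death-promoting protein BIM, rose by 0.44 (SE 0.07, adjusted p = 0.00326). Il7r, the receptor chain for the growth factor IL-7, fell by 0.43 (SE 0.07, adjusted p = 0.00349), and Rag2, a subunit of the V(D)J recombinase, by 0.53 (SE 0.09, adjusted p = 0.00426). For these 4 genes the groups did not overlap, and Ccr7, Bcl2l11 and Il7r passed under all 14 alternatives, Rag2 under 13. Irs2, Insr, Cdkn1b and Trib1 stand in this list and in another, and Il7r, Rag1, Rag2 and Blnk stand also among the pre-B cell markers. When all probe sets were tested 3 of the 7 still passed.

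**Figure D4:**
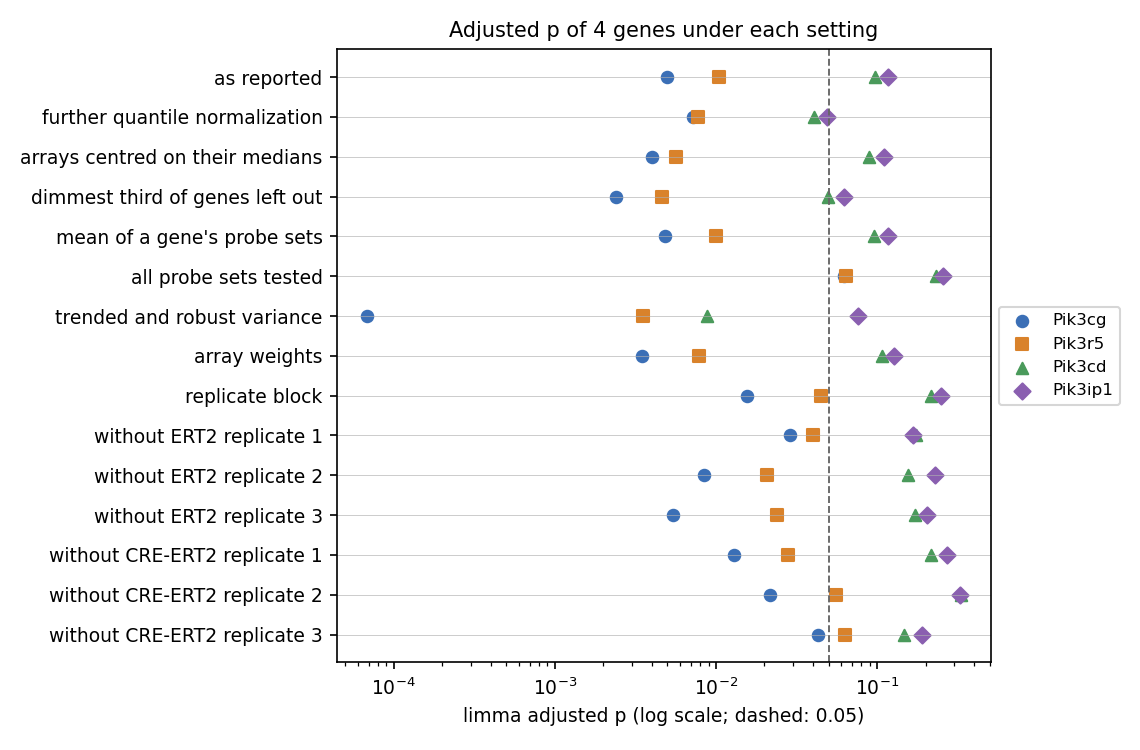
Limma adjusted p (x axis, log scale) of Pik3cg, Pik3r5, Pik3cd and Pik3ip1 as reported and under each of the 14 alternative settings; the dashed line marks 0.05. Pik3cg stays left of the line except when all probe sets are tested, Pik3r5 crosses it in 3 settings, and Pik3cd and Pik3ip1 lie right of it except in 3 settings and 1 setting.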

How the data were processed

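RNA of 6 samples was read on biotin-labelled Affymetrix arrays, per the labels' protocols. The deposited table holds 1 log2 value per probe set and array. Per the submitters' processing notes RMA and Partek 6.5 were used, in roles they do not state, and the log2 scale was read from the values. Signal over background and scan dates were not used here.

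Of 35556 probe sets, 21789 have exactly 1 gene in the platform annotation, and 19938 genes remained with 1 probe set each. CRE-ERT2 was compared with ERT2 over all genes by limma 3.58.1 in R 4.3.3 (lmFit, eBayes, two-sided), with Benjamini-Hochberg adjustment and a threshold of 0.05. The fit was tested on simulated data. Since nothing says that samples of a group were separate cultures, p-values cover only the spread between samples, possibly technical, and 3 arrays a group limit the precision. Median log2 expression was 7.90 to 7.98 on the arrays. No 2 arrays were duplicates (57 identical values at most).

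The members and lists were chosen with earlier results of these data known. Named are the 10 genes, Ptpn6, up to 4 passing members per list by size of change (where fewer than 2 passed, those with the smallest p, up to 2, which takes in Pik3r6), and the 5 genes most correlated with the gene of smallest p. List names with no single-gene probe set (8 of 143) were not analysed here. Promoter windows come from RefSeq (GRCm38.p6). For the array's build, the sources used here give none.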

Additional observations from a re-analysis of the deposited data

How the results depend on the processing

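The 14 alternatives were a further quantile normalization, median centring, a fit without the dimmest genes (a share of 0.333), averaging the probe sets of a gene, all probe sets tested, a trended prior with robust variance, weights per array, a block on the replicate number, and each of the 6 arrays left out. Pik3cg and Pik3r5 kept their direction under all 14. The count of genes passing was 914 as reported, 298 with all probe sets tested, 1544 with a trended, robust variance and 589 with the replicate block. A further quantile normalization moved the share of higher genes among those that passed from 50.2% to 60.9% and median centring to 56.7%, while it was 42.9% without the dimmest genes, 38.0% with the trended variance and 63.1% with all probe sets tested. With it 4 of the 10 genes passed, and 0 with all probe sets tested, where Pik3cg (-0.43) and Pik3r5 (0.35) missed the threshold. Pik3cd passed with the quantile normalization (0.27), without the dimmest genes (0.23) and with the trended variance (0.23), and Pik3ip1 with the quantile normalization (0.25). Of the other pathway genes 1 passed with all probe sets tested and 5 with the replicate block, and of the FOXO targets 3 with all probe sets tested. Signs turned for Pik3r1 (0.0047) and Akt1 (0.0015) after the quantile normalization and for Akt2 with array weights (-0.00070); the cause was not tested.

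With 1 array left out the count was 453 to 979 for all genes, 1 to 2 for the 10 genes, 3 to 8 for the other pathway genes and 5 to 7 for the FOXO targets. Log2 changes ran from -0.46 to -0.39 for Pik3cg, 0.33 to 0.37 for Pik3r5, 0.21 to 0.27 for Pik3cd, 0.19 to 0.25 for Pik3ip1, -0.23 to -0.03 for Pik3ca, -0.11 to -0.05 for Pik3cb, -0.089 to 0.015 for Pik3r1, -0.058 to 0.0099 for Akt1, -0.033 to 0.057 for Akt2 and -0.056 to 0.18 for Inpp4b. Deviations of same-numbered arrays correlated at -0.11, -0.37 and -0.07, and those of differently numbered arrays at -0.32 to 0.45. No array correlated best with its own number. The highest values were 0.45 (ERT2 replicate 2 with CRE-ERT2 replicate 1) and 0.40 (ERT2 replicate 3 with CRE-ERT2 replicate 2). Deviations cancel within each group, so these values cannot settle whether samples were paired, by these or other numbers. With the replicate block both calls among the 10 genes held.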

Other observations

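The genes next to the 10 on the chromosome were read after the results were known, by gene order in the RefSeq table of GRCm38.p6. Of 20 protein-coding neighbours, 1 on each side, 18 were measured and 2 passed with limma, against 4.58% of all genes. Prkar2b, a regulatory subunit gene of protein kinase A beside Pik3cg, changed by -0.35 (SE 0.07, adjusted p = 0.0188), and Zmat3, an RNA-binding protein gene beside Pik3ca, by 0.55 (SE 0.08, adjusted p = 0.00201). Pik3r5 and Pik3r6 are themselves neighbours. On its other side Pik3r5 has Ntn1, the gene of the guidance protein netrin, which changed by 0.04 (SE 0.09, adjusted p = 0.911).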
